A study of Mus musculus with 2 samples.

Results

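Aminoacyl-tRNA synthetases are described here in single cells of small B16F10 melanoma tumours grown in mice with or without host Atf4. The 36 genes chosen were the 35 synthetase genes of a set list together with Mars, the name that the files give to the cytosolic methionine enzyme, and all 36 were found among 31053 annotated genes. They comprised 20 cytosolic enzymes and 16 mitochondrial enzymes.

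A synthetase joins an amino acid to its tRNA, which makes the charged tRNA that the ribosome uses. The cytosol and the mitochondrion mostly use enzymes from separate genes, whereas Gars (glycine) and Kars (lysine) serve both compartments from 1 gene each and Eprs carries the glutamate and the proline activity in 1 protein. When cells run short of amino acids, uncharged tRNA activates the kinase GCN2, which phosphorylates eIF2α. The resulting rise of ATF4, a bZIP transcription factor, is known to raise transcription of amino acid synthesis genes, amino acid transporters and many cytosolic synthetases. The cytosolic enzymes were therefore split into 12 known as ATF4-induced (Aars, Cars, Eprs, Gars, Iars, Lars, Mars, Nars, Sars, Tars, Wars and Yars) and 8 others (Dars, Farsa, Farsb, Hars, Kars, Qars, Rars and Vars).

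Each library was 1 pool of 2 tumours, and there was 1 library per genotype. Both kinds of host carried Rosa26::CreERT2 and received tamoxifen, at a labelled age of 11 weeks. The Atf4 Δ/Δ hosts had floxed Atf4 deleted by this ubiquitous Cre and the Atf4 WT/WT hosts had intact Atf4, whereas the implanted B16F10 cells, a mouse melanoma line, kept their own Atf4 in both. The genotypes therefore could not be tested against each other, and every interval below is an exact 95% interval for counting error only.

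The values are unique molecular identifiers (UMIs), summed over the cells of a class and given per 1000000 UMIs of that class (CPM). UMIs mark 3′ ends and carry no length correction, so levels are compared within a gene or a fixed list, not between genes. The libraries held 38417113 (Atf4 WT/WT) and 38290024 (Atf4 Δ/Δ) UMIs, and 3861 and 3557 cells passed the filters. A cell entered a class when it held at least 3 of the class's markers and those of no other class, which gave 193 and 236 CAFs, 1077 and 814 macrophages/monocytes, 66 and 23 endothelial cells, 30 and 10 T/NK cells and 1710 and 1744 melanoma cells, with 781 and 722 cells left ungated. In every class of the Atf4 WT/WT library each defining marker was highest in its own class, and in the Atf4 Δ/Δ library this held except for 1 of 11 T/NK markers. The same markers defined the classes, so this is no separate check of what the classes are. The CAF markers include Col1a1, Col1a2 and Pdgfrb, which the paper reports as lower in Atf4 Δ/Δ CAFs. In CAFs the markers of this class summed to 46892 CPM in Atf4 WT/WT and 32421 CPM in Atf4 Δ/Δ hosts. Whether this changed which cells entered was not tested. Although both libraries were labelled as pooled males and females, no class of the Atf4 WT/WT library held a UMI of 4 Y-linked genes, whereas the Atf4 Δ/Δ CAFs held 74 and the Atf4 Δ/Δ macrophages/monocytes 148.

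Atf4 itself was measured first. In CAFs it stood at 263 CPM (196 UMIs) in the Atf4 WT/WT library and 67.7 CPM (66 UMIs) in the Atf4 Δ/Δ library, a log2 ratio of −1.96 (−2.38 to −1.55). In macrophages/monocytes it was 182 against 44.9 CPM, and in endothelial cells 48 UMIs (199 CPM) against 0, which allows up to 34.9 CPM at a limit of 3 UMIs. In melanoma cells it was 227 against 202 CPM, a log2 ratio of −0.16 (−0.23 to −0.10). Atf4 mRNA was thus lower in the host cells of the Atf4 Δ/Δ library and differed little in the melanoma cells.

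Synthetase promoters were searched for TGATGNAA, the composite C/EBP-ATF element through which ATF4 acts, on both strands of RefSeq windows that ran from 250 bases before to 50 bases after a start site (GRCm38.p6). Windows were found for 27 of the 36 genes, and 5 held the motif. All 5 (Aars, Gars, Iars, Tars and Yars) were among the 8 ATF4-induced enzymes with a window, whereas none of the 5 other cytosolic enzymes and none of the 14 mitochondrial enzymes with a window held it. Over all genes, 4.51% held it in a window. The site nearest the start site of each gene is shown, with that of the asparagine synthetase gene Asns for comparison, each as 28 bases in the direction of the gene with the motif in capitals.
Aars: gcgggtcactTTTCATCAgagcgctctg
Gars: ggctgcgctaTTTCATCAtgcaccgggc
Iars: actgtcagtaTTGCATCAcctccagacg
Tars: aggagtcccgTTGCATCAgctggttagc
Yars: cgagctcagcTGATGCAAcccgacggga
Asns: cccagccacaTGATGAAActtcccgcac

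The motif ran opposite to the gene in Aars, Gars, Iars and Tars and along it in Yars and Asns. The Aars site lay at chr8:111033841-111033868, plus strand, with the motif starting at base 10 after the start site. The Gars site lay at chr6:55037961-55037988, plus strand, 30 bases before the start site. The Iars site lay at chr13:49682127-49682154, plus strand, at base 8 after it. The Tars site lay at chr15:11399656-11399683, minus strand, 15 bases before it. The Yars site lay at chr4:129189896-129189923, plus strand, at base 4 after it. A match of these letters is a description of the window and not a measurement of binding, and no match says only that the letters are not in it. Sars and Eprs had windows without the motif.

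Cytosolic synthetases were highest in melanoma cells. Their sum was 1967 CPM (1947 to 1987) in melanoma cells of Atf4 WT/WT hosts, 1178 CPM in CAFs, 1079 CPM in endothelial cells, 1050 CPM (697 to 1517) in T/NK cells and 896 CPM in macrophages/monocytes. In Atf4 Δ/Δ hosts it was 2258 CPM in melanoma cells, 1232 CPM in CAFs, 925 CPM in macrophages/monocytes, 861 CPM in endothelial cells and 786 CPM (377 to 1446) in T/NK cells. The T/NK interval overlapped that of every other host class in both libraries, and the endothelial interval overlapped that of CAFs in the Atf4 WT/WT library and that of macrophages/monocytes in the Atf4 Δ/Δ library. Melanoma cells held 1.67-fold the CAF level in Atf4 WT/WT hosts and 1.83-fold in Atf4 Δ/Δ hosts, and 2.19-fold and 2.44-fold the macrophage/monocyte level.

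**Figure D1:**
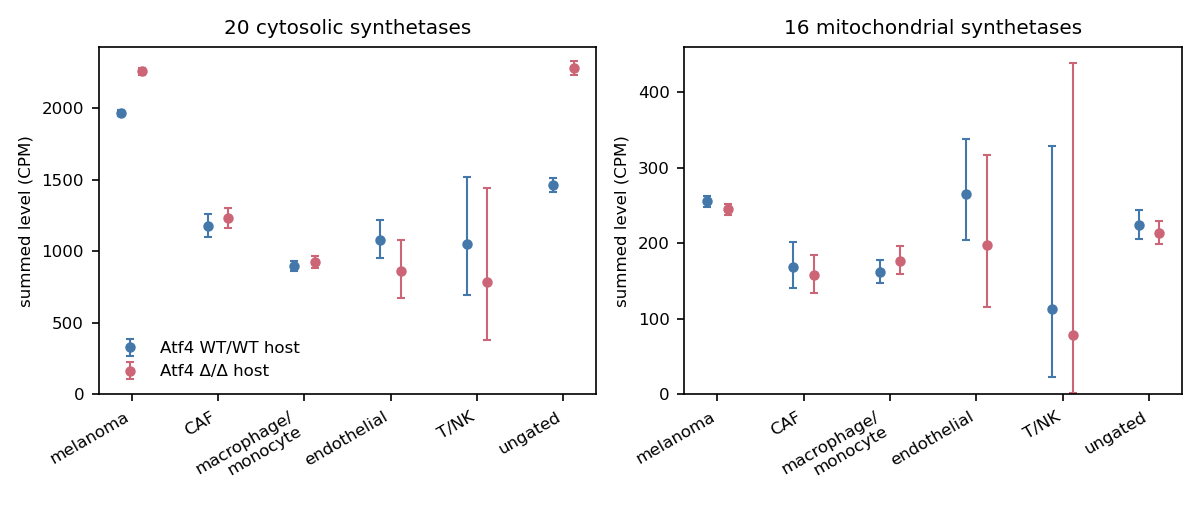
Summed level (CPM, linear axis from 0) of the 20 cytosolic and the 16 mitochondrial synthetases in each class; points are the 2 libraries and bars exact 95% Poisson intervals. The cytosolic sum lay near 2000 CPM or above in melanoma cells and near 1000 CPM in host classes, and the ungated cells of the 2 libraries stood apart at 1461 and 2280 CPM.

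Mitochondrial synthetases differed less between classes. Their sum was 256 CPM (249 to 263) in melanoma cells, 169 CPM (141 to 201) in CAFs, 162 CPM (147 to 179) in macrophages/monocytes and 265 CPM (204 to 338) in endothelial cells of Atf4 WT/WT hosts. In Atf4 Δ/Δ hosts the corresponding values were 245, 158, 177 and 198 CPM. T/NK cells gave only 3 and 1 mitochondrial UMIs. The ratio of the cytosolic to the mitochondrial sum was 7.69 and 9.22 in melanoma cells, 6.97 and 7.80 in CAFs, 5.52 and 5.22 in macrophages/monocytes and 4.08 and 4.35 in endothelial cells (Atf4 WT/WT first), so the ratio was lowest in endothelial cells, on 64 and 17 mitochondrial UMIs.

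Gene by gene, 14 of 20 cytosolic synthetases were higher in melanoma cells than in CAFs in both libraries, with the counting interval off 0 in each, and none was lower. Over all 11352 genes with at least 20 UMIs in the compared classes of each library, 24.9% were higher and 16.1% lower in this way. Against macrophages/monocytes 19 of 20 were higher and none lower, beside 40.6% and 20.4% of 11579 genes. The exception was Hars, the histidine enzyme, whose log2 ratio was 0.38 (0.10 to 0.67) in Atf4 WT/WT and 0.27 (−0.07 to 0.62) in Atf4 Δ/Δ hosts. Among the mitochondrial enzymes 4 of 16 were higher than in CAFs (Cars2, Iars2, Sars2 and Tars2) and 7 of 16 higher than in macrophages/monocytes. These counts lay near the shares of all genes, 24.9% and 40.6%. Genes entered by the UMIs of both classes together, so some low ones entered through melanoma cells. Sars2 had 1 CAF UMI in each library and log2 ratios of 2.89 (0.40 to 8.21) and 3.16 (0.66 to 8.47). Cars2 had 4 and 7 CAF UMIs, and Vars2 had 7 and 4 macrophage/monocyte UMIs.

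Lars2, the mitochondrial leucine enzyme, ran the other way. It stood at 21.5 and 25.2 CPM in melanoma cells (413 and 474 UMIs), 51.0 and 50.2 CPM in CAFs, 39.5 and 45.5 CPM in macrophages/monocytes and 82.7 (50.5 to 128) and 58.2 CPM in endothelial cells. Its log2 ratio of melanoma cells over CAFs was −1.25 (−1.73 to −0.73) and −0.99 (−1.42 to −0.54), and over macrophages/monocytes −0.88 and −0.85. It was the 1 member of the 36 that was lower in melanoma cells than in both host classes in both libraries. Lars2 also gave the most UMIs of any mitochondrial synthetase in CAFs and in macrophages/monocytes, while Iars2, the isoleucine enzyme, gave the most in melanoma cells (55.3 and 56.6 CPM).

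**Figure D2:**
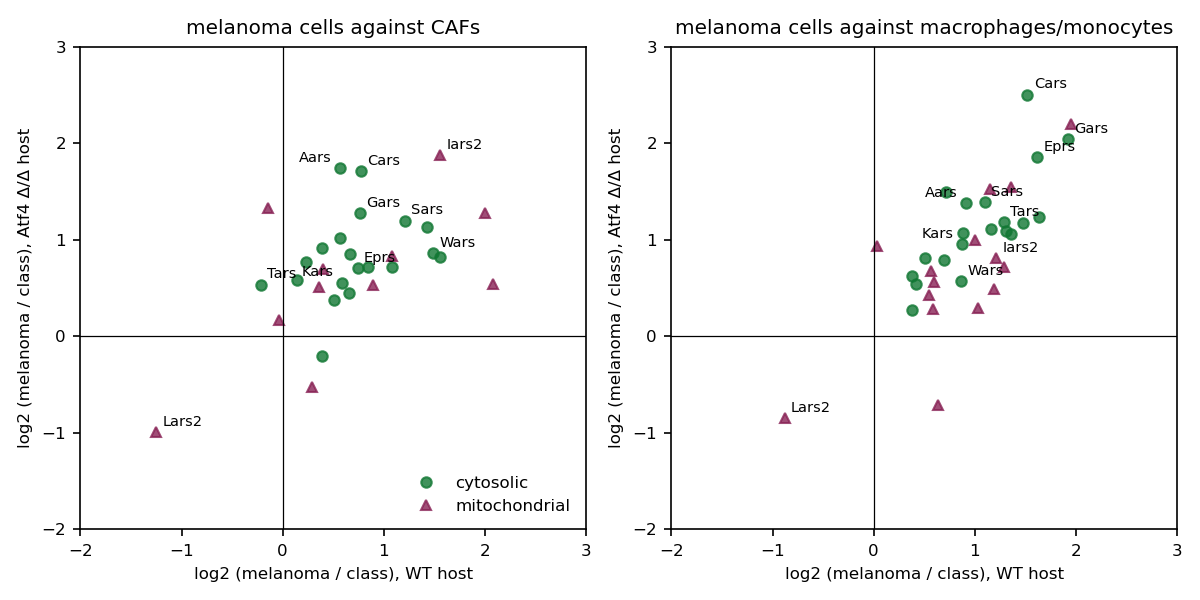
Log2 ratio of the melanoma level over the CAF level (left) or the macrophage/monocyte level (right) of each synthetase with at least 3 UMIs in the host class of each library, in Atf4 WT/WT hosts (x axis) and Atf4 Δ/Δ hosts (y axis). Most points lie above 0 on both axes, and Lars2 lies below 0 on both, at −1.25 and −0.99 against CAFs.

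Part of the synthetase RNA of host cells can be free RNA from melanoma cells. From the melanoma markers, melanoma RNA made up 4.23% and 6.99% of the UMIs of CAFs and 6.69% and 7.30% of those of macrophages/monocytes. With that share subtracted, the cytosolic sums were 1144 and 1154 CPM in CAFs and 819 and 820 CPM in macrophages/monocytes.

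Loss of host Atf4 was then compared within each class, beginning with CAFs, in which the cytosolic sum hardly differed. It was 1178 CPM (1102 to 1259) in Atf4 WT/WT and 1232 CPM (1163 to 1303) in Atf4 Δ/Δ CAFs, a log2 ratio of 0.06 (−0.06 to 0.19). The 12 ATF4-induced enzymes gave 836 against 818 CPM, a log2 ratio of −0.03 (−0.18 to 0.12), although 8 of them were below 0 and their median was −0.28. The 8 other cytosolic enzymes gave 342 against 413 CPM, a log2 ratio of 0.27 (0.04 to 0.50), with 7 above 0 and Rars, at 0.87, the highest. In the CAFs with Xist described below this was 0.09 (−0.31 to 0.48). The ATF4-induced ratio was −0.16 (−0.44 to 0.10) in the same cells, −0.10 with melanoma RNA subtracted and 0.13 with cells thinned to 2000 UMIs. The median over all 7425 genes tested was −0.03.

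The share of synthetases called in CAFs lay near that of all genes. A gene was called where the libraries differed by at least 1.5-fold, the counting interval lay off 0 and the class held at least 20 UMIs of it in all. Of the 25 synthetases with that many UMIs in CAFs, 2 were called higher in Atf4 Δ/Δ hosts, beside 6.68% of all genes, and 2 lower, beside 8.71%, and the values below describe single genes. Rars, the arginine enzyme, was 40.3 CPM (30 UMIs) against 73.8 CPM (72 UMIs), a log2 ratio of 0.87 (0.24 to 1.54). Sars, the serine enzyme, was 73.8 CPM (55 UMIs) against 113 CPM (110 UMIs), a log2 ratio of 0.61 (0.13 to 1.11). Both were higher in the Atf4 Δ/Δ CAFs, and Rars is not on the ATF4-induced list whereas Sars is.

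The lower calls were both of ATF4-induced enzymes whose promoter windows hold the motif. Aars, the alanine enzyme, was 48.3 CPM (36 UMIs) against 24.6 CPM (24 UMIs), a log2 ratio of −0.97 (−1.78 to −0.19). Tars, the threonine enzyme, was 81.9 CPM (61 UMIs) against 51.3 CPM (50 UMIs), a log2 ratio of −0.68 (−1.24 to −0.11). The other genes with the motif were not called: Gars was −0.09 (−0.47 to 0.29), Iars 0.03 (−0.73 to 0.80) and Yars −0.58 (−1.73 to 0.55). Their intervals hold 0, but those of Iars and Yars also hold the Tars value, so a difference from it was not detectable at this depth. Eprs gave the most CAF UMIs and was 209 against 266 CPM, a log2 ratio of 0.34 (0.05 to 0.64) that fell short of 1.5-fold. Kars was 59.1 against 56.4 CPM and Lars2 51.0 against 50.2 CPM. Taken without Eprs, Gars and Sars, the 3 cytosolic genes with most melanoma UMIs, the other 9 ATF4-induced enzymes summed to 412 against 308 CPM, a log2 ratio of −0.42 (−0.66 to −0.19), with 7 below 0, but this split was made after the values were seen.

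Each CAF call kept its direction under 11 other settings and fell under 1.5-fold in some of them. Rars ranged from 0.36 to 1.18, Sars from 0.40 to 0.98, Aars from −1.62 to −0.42 and Tars from −2.38 to −0.57, and Sars was under 1.5-fold in 5 settings and the others in 1 each.

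The mitochondrial sum in CAFs was 169 against 158 CPM, a log2 ratio of −0.10 (−0.45 to 0.25), on 126 and 154 UMIs, and none of the 5 mitochondrial enzymes with 20 UMIs was called. In CAFs positive for Xist but without Y-linked UMIs (156 and 60 cells) the cytosolic log2 ratio was −0.08 (−0.31 to 0.14) and the mitochondrial 0.43 (−0.11 to 0.95), and both intervals hold 0. In the 51 Atf4 Δ/Δ CAFs with Y-linked but not Xist UMIs the cytosolic sum was 1221 CPM, and over the Atf4 WT/WT cells with Xist its log2 ratio was 0.08 (−0.11 to 0.27).

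In macrophages/monocytes the synthetases again differed little in sum. The cytosolic sum was 896 CPM (860 to 933) against 925 CPM (883 to 969), a log2 ratio of 0.05 (−0.04 to 0.14), with Atf4 at a log2 ratio of −2.02. The ATF4-induced enzymes were at 0.07 (−0.05 to 0.18), the other cytosolic enzymes at 0.01 (−0.14 to 0.16) and the mitochondrial enzymes at 0.13 (−0.08 to 0.34). Of 31 synthetases with 20 UMIs none was called higher, beside 5.49% of all genes, and 1 was called lower, beside 4.43%. This was Cars, the cysteine enzyme, at 19.2 CPM (50 UMIs) against 11.2 CPM (22 UMIs), a log2 ratio of −0.77 (−1.57 to −0.02). Under other settings Cars ranged from −1.26 to −0.57 and was under 1.5-fold in 2 of 11, and the ATF4-induced ratio was −0.05 with cells thinned to 2000 UMIs. Eprs was 114 against 120 CPM, Nars, the asparagine enzyme, 96.3 against 85.8 CPM and Sars 79.4 against 98.6 CPM, the last with a log2 ratio of 0.31 (0.02 to 0.60). Gars was 63.3 against 77.6 CPM, a log2 ratio of 0.29 (−0.03 to 0.62), and Kars 48.4 against 42.9 CPM. In cells positive for Xist without Y-linked UMIs (751 and 91 cells) the cytosolic log2 ratio was 0.13 (−0.07 to 0.32).

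**Figure D3:**
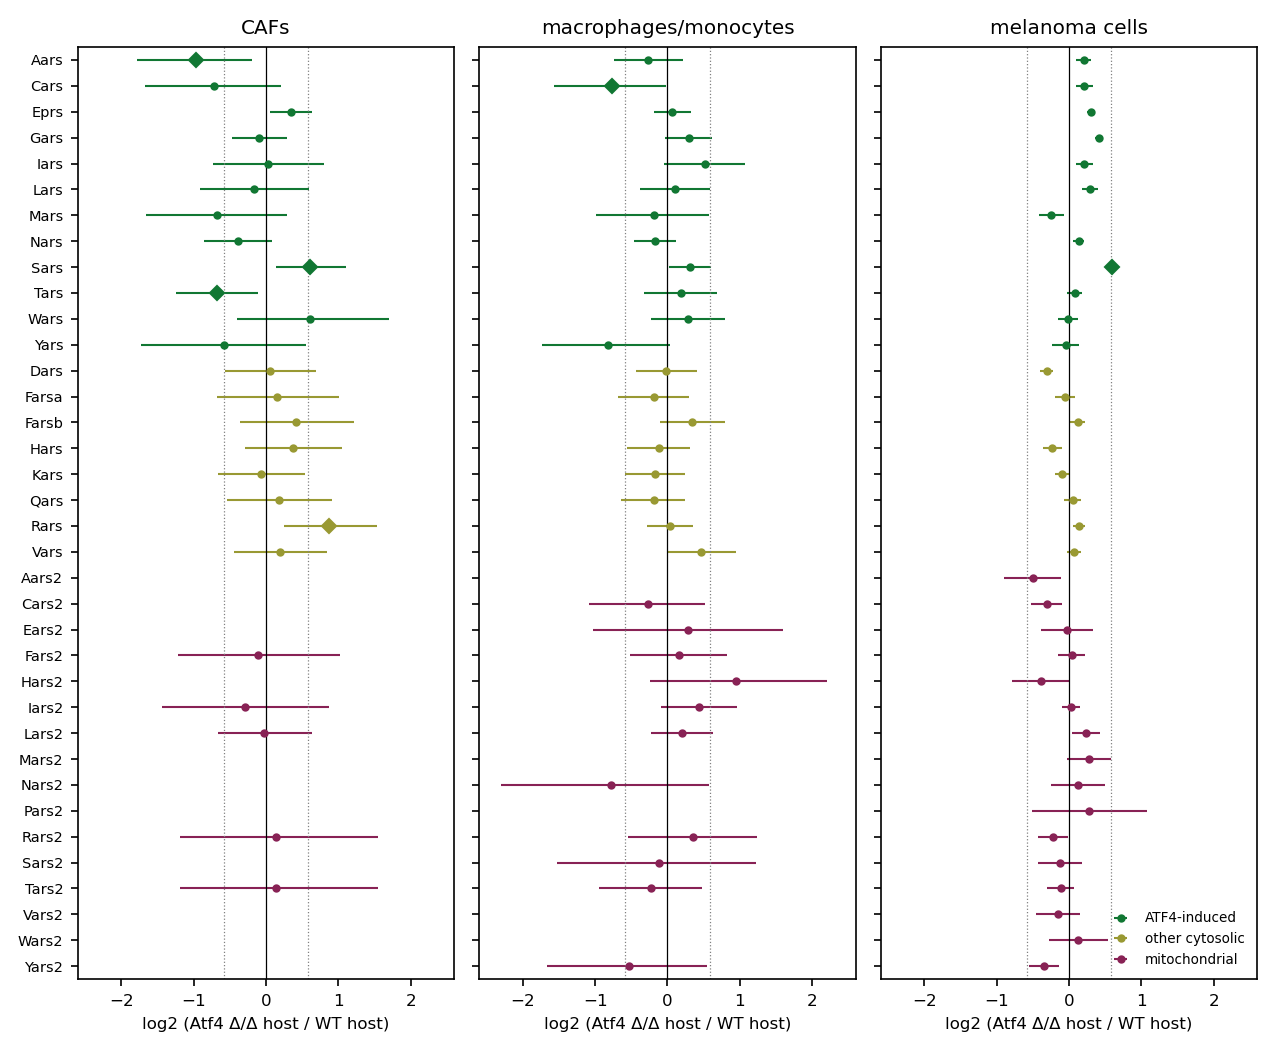
Log2 ratio of each synthetase, Atf4 Δ/Δ over Atf4 WT/WT hosts, in CAFs, macrophages/monocytes and melanoma cells, for genes with at least 20 UMIs in the class; bars are exact 95% counting intervals, dotted lines mark 1.5-fold and diamonds mark called genes. Most intervals in the host classes hold 0, whereas those of melanoma cells are narrow, with Sars at 0.60 and Gars at 0.42.

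Endothelial and T/NK cells were too few for single genes. In endothelial cells the cytosolic sum rested on 261 and 74 UMIs and had a log2 ratio of −0.33 (−0.72 to 0.05), and the ATF4-induced enzymes were at −0.47 (−0.99 to 0.02). In T/NK cells the cytosolic UMIs numbered 28 and 10, so a difference was not detectable at this depth.

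Melanoma cells, which kept Atf4, were the gated class with a difference in the cytosolic sum beyond counting error. The sum was 1967 CPM against 2258 CPM, a log2 ratio of 0.20 (0.18 to 0.22), higher in Atf4 Δ/Δ hosts, while all 12133 genes tested had a median of 0.03. The ATF4-induced enzymes carried it, at 1320 against 1623 CPM, a log2 ratio of 0.30 (0.27 to 0.32), with 9 of 12 above 0 and a median of 0.21. The other cytosolic enzymes were at −0.03 (−0.06 to 0.01) and the mitochondrial enzymes at −0.06 (−0.12 to −0.0035), with 4 of 8 and 7 of 16 above 0. Without Eprs, Gars and Sars the ATF4-induced sum was 559 against 612 CPM, a log2 ratio of 0.13 (0.09 to 0.17), with 6 of 9 above 0.

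Among single genes Sars was the only synthetase called in melanoma cells, beside 6.55% of all genes called higher and 3.17% lower. It was 171 CPM (165 to 177) against 259 CPM (252 to 266), a log2 ratio of 0.60 (0.54 to 0.66), which fell to 0.46, under 1.5-fold, with cells thinned to 2000 UMIs and to 0.57 with a melanoma limit of 80 marker UMIs per 10000. Gars was 240 against 320 CPM, a log2 ratio of 0.42 (0.36 to 0.47), and Eprs 351 against 433 CPM, a log2 ratio of 0.30 (0.25 to 0.35). Lars, the leucine enzyme, was at 0.29, Iars at 0.21, Cars at 0.21, Aars at 0.20 and Nars at 0.13, all with intervals above 0 though under 1.5-fold. Mars went against the list, at 32.6 against 27.6 CPM, a log2 ratio of −0.24 (−0.41 to −0.07), and Dars, the aspartate enzyme, was the lowest of the other cytosolic enzymes at −0.31 (−0.40 to −0.22). Kars was 88.7 against 83.0 CPM and Iars2 55.3 against 56.6 CPM.

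The same cells differed in depth and in melanoma marker level. The median melanoma cell held 11367 UMIs in Atf4 WT/WT and 10763 in Atf4 Δ/Δ hosts, mitochondrial RNA made up a median of 6.06% and 5.38%, and the melanoma markers summed to 13352 and 10588 CPM. With every cell thinned to 2000 UMIs, the mean melanoma cell held 3.90 and 4.49 cytosolic synthetase UMIs, and 2.87% and 1.77% held none, against 15.6% and 16.8% of macrophages/monocytes. The cytosolic log2 ratio was 0.20 with cells thinned to 2000 UMIs. It was 0.21 and 0.18 with melanoma limits of 30 and 80 marker UMIs per 10000. The part of depth and marker level in the difference was not tested beyond these settings.

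Cells were next grouped by the UMIs of 9 stress response genes that are not synthetases (Ddit3, Trib3, Chac1, Asns, Psat1, Atf5, Nupr1, Sesn2 and Slc7a11), after each cell was thinned to 2000 UMIs. All of these genes are also on the amino acid response list compared below. Cells with 3 or more such UMIs are called stressed, but stress itself was not measured. In both libraries the ATF4-induced synthetases were higher in melanoma cells with more stress gene UMIs. They stood at 1252 CPM in cells with 0, 1361 CPM in cells with 1 to 2 and 2106 CPM (1874 to 2358) in cells with 3 or more in Atf4 WT/WT hosts, and at 1374, 1657 and 2243 CPM (2116 to 2376) in Atf4 Δ/Δ hosts. The log2 ratio of cells with 3 or more over cells with 0 was 0.75 (0.57 to 0.92) and 0.71 (0.60 to 0.81). The other cytosolic enzymes were at 0.35 (0.06 to 0.64) and 0.16 (−0.02 to 0.35) and the mitochondrial enzymes at −0.31 (−0.91 to 0.24) and 0.11 (−0.20 to 0.41), and the mitochondrial intervals hold 0. With cells thinned to 4000 UMIs, a setting added after the data were seen for all but the cytosolic and mitochondrial sums, the ATF4-induced ratios were 0.63 (0.54 to 0.72) and 0.76 (0.68 to 0.83). There the other cytosolic enzymes turned to −0.04 (−0.19 to 0.10) in Atf4 WT/WT hosts and were at 0.08 (−0.04 to 0.20) in Atf4 Δ/Δ hosts, and the mitochondrial enzymes were at −0.32 (−0.57 to −0.08) and −0.23 (−0.42 to −0.04). The ATF4-induced list was thus above 0 at both depths in both libraries. Between the depths the other cytosolic list changed sign in Atf4 WT/WT hosts only and the mitochondrial list in Atf4 Δ/Δ hosts only.

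**Figure D4:**
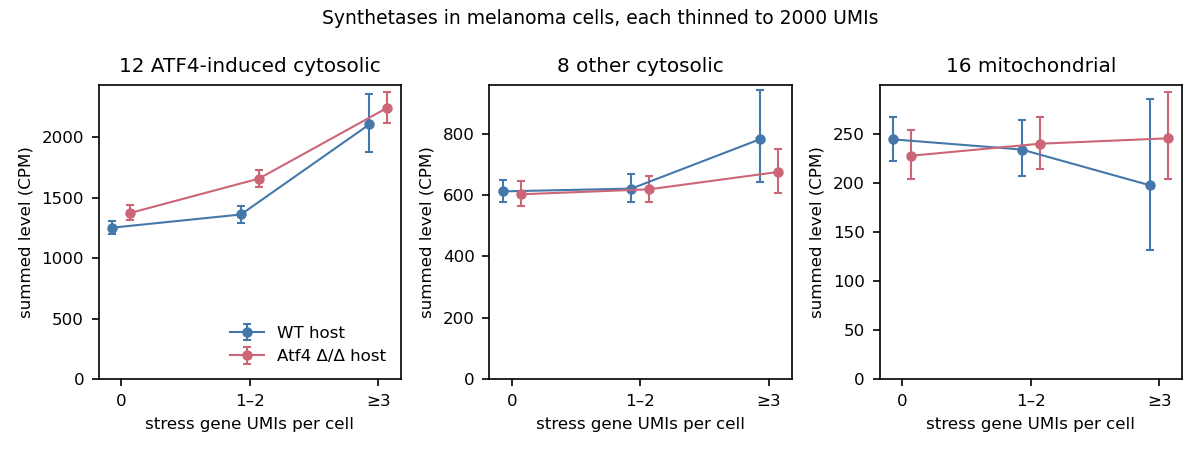
Summed level (CPM, linear axis from 0) of the ATF4-induced, other cytosolic and mitochondrial synthetases in melanoma cells thinned to 2000 UMIs, by the number of stress gene UMIs in the cell; bars are exact 95% Poisson intervals. The ATF4-induced sum was above 2000 CPM in cells with 3 or more in both libraries, and the mitochondrial sum stayed between 197 and 245 CPM.

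By gene, 6 of the 20 cytosolic synthetases were higher in the cells with 3 or more stress gene UMIs in both libraries and none was lower, beside 1.88% higher and 1.95% lower of 7189 genes. They were Cars, Eprs, Gars, Nars and Sars of the ATF4-induced list and Rars of the others. At 4000 UMIs the count was 9, all ATF4-induced (the same 5 with Aars, Iars, Lars and Tars), and Rars no longer passed. The share of all genes was not counted at that depth, where 200 and 545 cells held 3 or more against 71 and 257 at 2000 UMIs. The 1.88% therefore does not apply to this count. Sars had the largest ratio of these in the Atf4 Δ/Δ library, at 1.20 (0.76 to 1.61) and 1.05 (0.78 to 1.32), followed there by Gars at 0.76 and 0.95. None of the 7 mitochondrial enzymes with enough UMIs passed in either direction. Wars was at −0.08 and −0.14.

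More melanoma cells of Atf4 Δ/Δ hosts fell into the stressed group, 257 of 1639 (15.7%) against 71 of 1603 (4.43%). This share is not separate from the higher amino acid response list in the same cells, since that list holds every grouping gene. Within the stressed group the cytosolic log2 ratio between genotypes was 0.02 (−0.14 to 0.18), among cells with 1 to 2 it was 0.20 (0.12 to 0.28) and among cells with 0 it was 0.08 (0.01 to 0.16). When the Atf4 Δ/Δ cells were weighted to the group shares of the Atf4 WT/WT library, the cytosolic log2 ratio went from 0.20 to 0.12 and that of the ATF4-induced enzymes from 0.29 to 0.19. The stressed cells held fewer UMIs before thinning, with medians of 10067 and 9467 against 11824 and 11586 in cells with 0, and less mitochondrial RNA in Atf4 Δ/Δ hosts (4.73% against 5.69%).

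Stressed host cells were few in number, though not always in share, and the ratios depended on the depth to which cells were thinned. In CAFs with 3 or more stress gene UMIs (20 and 18 cells) the log2 ratio of the ATF4-induced enzymes over cells with 0 was 0.36 (−0.24 to 0.93) in Atf4 WT/WT and 0.59 (0.06 to 1.09) in Atf4 Δ/Δ hosts. In macrophages/monocytes (9 and 26 cells) it was 0.75 (−0.04 to 1.44) and 0.77 (0.28 to 1.23). At 4000 UMIs the CAF ratios were 0.15 (−0.34 to 0.65) and 0.72 (0.28 to 1.16), while those of macrophages/monocytes turned to −0.56 (−1.79 to 0.46), on 5 stressed cells, and fell to 0.32 (−0.27 to 0.89). At 2000 UMIs such cells made up 12.3% and 9.09% of CAFs and 1.55% and 5.99% of macrophages/monocytes, beside 4.43% and 15.7% of melanoma cells.

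The cells that no gate took differed most between the libraries. Their cytosolic sum was 1461 CPM against 2280 CPM, a log2 ratio of 0.64 (0.58 to 0.70), and the ATF4-induced sum 975 against 1772 CPM, a log2 ratio of 0.86 (0.79 to 0.93), while the other cytosolic enzymes were at 0.06 and the mitochondrial enzymes at −0.07, both with intervals that hold 0. Of the 35 synthetases with 20 UMIs 8 were called higher and none lower, beside 8.44% and 13.7% of all genes. Sars was 128 against 336 CPM, a log2 ratio of 1.39, and Gars 171 against 346 CPM, a log2 ratio of 1.02. The others called were Eprs, Lars, Aars, Iars, Tars and Wars, all ATF4-induced. These cells were a mixture: 647 and 619 had no host class and missed the melanoma gate, 70 and 33 were called doublets, their melanoma markers summed to 6282 and 4578 CPM, and 297 and 687 cells of all kept cells lay near the melanoma marker limit, at 30 to 80 UMIs per 10000. Of ungated cells with 2000 UMIs, 5.99% and 32.8% held 3 or more stress gene UMIs, and within those the ATF4-induced log2 ratio between genotypes was −0.23 (−0.58 to 0.15).

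Wars, the tryptophan enzyme, is induced by interferon gamma besides ATF4. It was 17.4 CPM (13 UMIs) against 26.7 CPM (26 UMIs) in CAFs, a log2 ratio of 0.61 (−0.40 to 1.70), 26.9 against 32.7 CPM in macrophages/monocytes, 53.8 CPM (13 UMIs) against 46.5 CPM (4 UMIs) in endothelial cells and 48.9 against 48.5 CPM in melanoma cells, and no T/NK cell held a UMI of it. The 9 interferon genes in CAFs summed to 344 against 147 CPM, a log2 ratio of −1.23 (−1.53 to −0.93). Of these 7 of 7 tested were below 0 and 4 were called lower, beside 8.71% of all genes. Irf1, an interferon-induced transcription factor, was 30 against 7 UMIs there. In endothelial cells the interferon sum was at −0.78 (−1.51 to −0.10), in ungated cells at −1.09 (−1.26 to −0.92), in macrophages/monocytes at −0.06 and in melanoma cells at 0.13. In macrophages/monocytes 5 of 8 tested genes were below 0, but 2 were called higher, beside 5.49% of all genes. These were Cxcl9 at 1.56 (0.83 to 2.32), which was at −1.99 in CAFs, and Gbp2 at 0.97 (0.42 to 1.52).

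Genes that work beside the synthetases were compared in the same way. The 8 enzymes of the multisynthetase complex (Dars, Eprs, Iars, Kars, Lars, Mars, Qars and Rars) were at 0.21 (0.02 to 0.40) in CAFs, 0.02 in macrophages/monocytes and 0.13 (0.10 to 0.17) in melanoma cells. The CAF median was 0.04, with 5 above and 3 below 0, and without Eprs and Rars the other 6 enzymes were at −0.06 (−0.34 to 0.22) in CAFs and −0.03 (−0.07 to 0.02) in melanoma cells. Its scaffolds Aimp1, Aimp2 and Eef1e1 summed to 0.04, −0.06 and 0.03. Of these Eef1e1 was called lower in CAFs, beside 8.71% of all genes, at 61.7 against 35.9 CPM, a log2 ratio of −0.78 (−1.46 to −0.12). It was at −0.36 (−0.75 to 0.02) in macrophages/monocytes. In melanoma cells the scaffolds differed in direction, with Eef1e1 at −0.31 (−0.41 to −0.21), Aimp1 at 0.17 (0.12 to 0.23) and Aimp2 at −0.07 (−0.19 to 0.05). The 5 elongation factors, which bring charged tRNA to the ribosome and move it on, summed to 0.03, −0.10 and −0.03. Eef1a1 gave 4325 of the 7009 Atf4 WT/WT CAF UMIs and was at −0.10 in CAFs, but the CAF median was 0.18, with 4 above and 1 below 0. In melanoma cells 2 were above and 3 below 0, and no interval holds 0. Among them Eef2 was at 0.21 (0.19 to 0.24) and Eef1a1 at −0.11 (−0.12 to −0.10).

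Other genes of the amino acid response differed by more than the synthetases in melanoma cells. Its 20 genes summed to 1237 against 1771 CPM, a log2 ratio of 0.52 (0.49 to 0.54), with a median of 0.65. Of these 20 of 20 were above 0, beside 53.5% of all genes, and 10 were called higher, beside 6.55%. The list includes all the genes used above to group cells by stress. Its rise in melanoma cells and their larger stressed share are therefore not separate results. Nupr1, a stress-induced chromatin protein, was 19.5 against 96.8 CPM and Atf5, a bZIP factor downstream of ATF4, 13.4 against 49.3 CPM. In CAFs the list was at −0.28 (−0.40 to −0.16), with 11 of 15 tested below 0, though 12 of the 15 intervals hold 0. Of its 1153 and 1242 UMIs there, Cebpb gave 385 and 378, at a log2 ratio of −0.41 (−0.62 to −0.21). Atf5 was called lower in CAFs, at 156 against 67.7 CPM, as was Pycr1, a proline synthesis enzyme, with 21 against 10 UMIs, beside 8.71% of all genes. In macrophages/monocytes the list was at −0.03 (−0.10 to 0.04), but 13 of 18 tested genes were above 0 and their median was 0.14. Of its 4143 and 3055 UMIs there, Cebpb gave 2186 and 1375, at a log2 ratio of −0.26 (−0.36 to −0.16). In this class 4 genes were called higher, beside 5.49% of all genes, among them Asns at 12.3 against 24.0 CPM.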

How the data were processed

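A pair of 10x Genomics 3′ single-cell libraries were analysed, 1 per host genotype. The deposited counts are whole UMIs per gene and barcode. Per the labels' processing notes the authors used Cell Ranger 3.1.0, GRCm38 and Seurat 3.2.1. Barcodes entered the analysis if 200 to 5000 genes were detected in them and mitochondrial genes gave no more than 7.5% of UMIs. A host class needed at least 3 distinct markers of 1 host class and fewer than 50 melanoma marker UMIs per 10000. Melanoma cells needed at least 50, with 3 melanoma markers and no host class. These limits were set after the data were seen, and the members and lists were chosen with earlier results of these data known. Raw UMIs were summed per class. Ratios have exact conditional binomial (Clopper-Pearson) 95% intervals and levels exact Poisson ones, which cover counting error only, since PCR and cell-to-cell variation are not in them. Cells were thinned to 2000 UMIs, leaving out shallower cells (107 and 105 melanoma cells, 31 and 38 CAFs, 495 and 380 macrophages/monocytes). Doublets were called with Scrublet in scanpy 1.11.5, 96 and 47 among kept cells, and were left in. The libraries shared 10 barcodes, of which 1 was kept in both. Scripts used Python 3.11.15, numpy 2.4.6 and scipy 1.17.1. The interval was tested on simulated Poisson counts, the model it rests on, which hold no variation between animals, libraries or cells. In each of CAFs, macrophages/monocytes and melanoma cells the members named were every called gene, the 3 cytosolic genes and 1 mitochondrial gene with most UMIs, and Wars, Gars, Kars and Eprs. Others named were chosen after their values were seen. Promoter windows are from RefSeq (GRCm38.p6), matched by symbol. The labels and the paper's methods give different kit versions and ages of the mice, and the labels were followed.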

Additional observations from a re-analysis of the deposited data

How the results depend on the processing

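No paired analysis was possible because the genotypes had 1 library apiece. Values are log2 ratios of Atf4 Δ/Δ over Atf4 WT/WT hosts unless named otherwise, and the reported interval holds 0 where a value changed sign, except for the other cytosolic enzymes by stress group. Restricted to cells with Xist and without Y-linked UMIs, the CAF ratio was −0.0845 for cytosolic and 0.43 for mitochondrial enzymes, and Tars in CAFs was −2.38. Thinned to 2000 UMIs per cell, the ATF4-induced enzymes were at 0.13 in CAFs and −0.0481 in macrophages/monocytes, and Sars in melanoma cells at 0.46. At 2-fold in place of 1.5-fold the counts of called members were 0 in CAFs, macrophages/monocytes and melanoma cells in both directions. With 1 more marker per class, the T/NK cells of Atf4 WT/WT hosts held 0 mitochondrial CPM. Thinned to 4000 UMIs, the ratio of cells with 3 or more stress gene UMIs over cells with 0 was 0.40 for mitochondrial enzymes in Atf4 WT/WT CAFs, 0.43 for cytosolic enzymes in Atf4 WT/WT melanoma cells −0.23 for mitochondrial enzymes in Atf4 Δ/Δ melanoma cells, −0.556 for ATF4-induced enzymes in Atf4 WT/WT macrophages/monocytes and −0.0450 for other cytosolic enzymes in Atf4 WT/WT melanoma cells, the last reported as 0.35 at 2000 UMIs. What causes these shifts was not tested. The other 172 values for sums, counts and levels stayed within the interval of the value reported or within 1.5 times the count. Depth limits the host classes most, where a called enzyme rests on as few as 22 UMIs in a library.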
